A study of Homo sapiens with 21 samples.

Results

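Interferon-stimulated genes are the genes that a cell transcribes when it receives an interferon, and 39 of them were followed across 7 groups of A375 libraries. The 39 were chosen by name as well-known members, by a rule that uses no measured value, but with earlier results of these data known. Each matched 1 of the 58870 genes in the files. All 39 reached 10 or more in 3 or more of the 21 libraries and so entered the test with 19290 genes. RSAD2, IFI27 and XAF1 did so only through groups in which they were high, so results for them are a description.

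A375 cells come from a human melanoma and carry an activating mutation of the kinase BRAF. The parental line was compared with gSOX10 #2 and gSOX10 #4, in which SOX10, a transcription factor of neural crest and melanocyte cells, had been knocked out with CRISPR/Cas9 and a different guide in each, and with CRT34 and CRT35, which grew out of A375 tumors in mice that had been given a BRAF and a MEK inhibitor. Each CRT line was kept in medium with 1 µM of the BRAF inhibitor PLX4720 and 35 nM of the MEK inhibitor PD0325901, and was sequenced with both inhibitors (Combo) or with solvent (DMSO) for a time that the labels do not give. The parental line and the knockouts were sequenced without inhibitors, and each of the 7 groups held 3 libraries. Each knockout is a single clone and no control clone was sequenced, so the loss of SOX10 cannot be told apart from cloning and selection. The gSOX10 #4 libraries are labelled as A375, but their titles carry the clone number of a knockout in MeWo, another melanoma line. The cell line label is followed here, and every gSOX10 #4 value rests on it. A Combo library differs from a parental one in line and in drug together, and these cannot be told apart either. The CRT lines had also grown in mice and under the inhibitors, and no line from untreated tumors was among the groups. In DMSO they had moreover been taken off inhibitors that they were kept in. In the CRT lines these differences and the loss of SOX10 cannot be told apart.

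Type I interferons bind a receptor of IFNAR1 and IFNAR2 at the cell surface, and the kinases JAK1 and TYK2 then phosphorylate STAT2. With IRF9 it is part of a complex that binds interferon-stimulated response elements in promoters, while interferon gamma acts mainly at gamma-activated sites. The products block viruses at many steps, from entry and RNA sensing to translation and budding, and melanoma cells can transcribe them without any infection.

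Values are gene counts that the authors had scaled to a common library size, so a gene can be compared between libraries but not with another gene. They summed to between 59200000 and 68300000 per library. Gaps among the lowest values gave an estimated depth of 27100000 to 75500000 reads, lowest in CRT35 DMSO replicate 1. SOX10 averaged 11682 in the parental line, 452 and 487 in gSOX10 #2 and gSOX10 #4, and at most 2.43 in any CRT group. CRT34 Combo replicate 3 correlated more closely with CRT34 DMSO (mean Pearson r across genes, 0.969) than with its own group (0.964), so counts of calls are also given without it and CRT35 DMSO replicate 1 together. Among defining markers, MLANA of melanocytes and CLEC4C of plasmacytoid dendritic cells, the main makers of type I interferon in blood, were at 0 in every library. The summed value of 10 leukocyte markers ran from 363 to 552 in the parental libraries, from 260.2 to 755 in the clones and from 138 to 867 in the CRT libraries, with PTPRC at 44.5 or less throughout. Within this sum, LYZ averaged 400 in the parental line and 55.2 or less elsewhere. ITGAX averaged 49.8 in the parental line and between 196 and 728 elsewhere. The sum of 9 melanocyte lineage markers ran from 13001 to 15458 in the parental libraries and from 2048 to 11558 elsewhere. Most of the parental sum was SOX10 itself, and the 9 did not move together. MITF averaged 1447 in the parental line and between 1449 and 7658 elsewhere, while S100B averaged 498 in the parental line and 13.8 or less elsewhere. The sum of 3 markers of plasmacytoid dendritic cells ran from 1.90 to 8.70 in the parental libraries, from 0 to 5.84 in the clones and from 27.8 to 343 in the CRT libraries, nearly all of it from IL3RA, with LILRA4 above 0 in 1 library only (0.890). The sum of 4 endothelial markers ran from 74.7 to 128.5 in the parental libraries, from 132 to 349 in the clones and from 136 to 777 in the CRT libraries. Their part in the results was not tested.

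Most interferon-stimulated genes that moved were higher than in the parental line, in both clones and in both CRT lines. A gene is called higher or lower where its group mean of log2(value + 1) differed by at least 2-fold with an adjusted p of 0.05 or lower, from limma on all 21 libraries with the Benjamini-Hochberg method over all 19290 genes. In gSOX10 #2, 19 of 39 members were called higher and 0 lower, against 15.9% and 7.78% of all genes, and their median log2 difference was 0.99, against 0.03 over all genes. In gSOX10 #4, 16 were higher and 1 lower (all genes, 11.8% and 8.91%), with a median of 0.89 against 0.00. CRT34 DMSO had 15 higher and 0 lower (all genes, 15.7% and 7.35%), with a median of 0.53 against 0.03. CRT35 DMSO had 22 higher and 1 lower (all genes, 15.7% and 7.98%), with a median of 1.15 against 0.02. With the inhibitors, 22 were higher and 1 lower in CRT34 (all genes, 19.1% and 8.09%) and 26 higher and 1 lower in CRT35 (all genes, 20.1% and 10.2%), with medians of 1.19 and 1.42 against 0.04 and 0.05. Without CRT34 Combo replicate 3 and CRT35 DMSO replicate 1, 19 members were higher and 1 lower in CRT35 DMSO and 22 and 1 in CRT34 Combo. Of all 19290 genes, 2711 were higher and 1465 lower in CRT35 DMSO, and 3759 and 1651 in CRT34 Combo. The higher counts include IFI27 and RSAD2 in all 6 groups and XAF1 in the 4 CRT groups. These passed the filter only through groups in which they were high, and no count was made without them. The 6 comparisons share the parental libraries, and in bulk RNA fewer cells that express a gene and less of its RNA per cell cannot be told apart.

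Under quantile normalization, which forces the same distribution on every library, 12 members were called higher in gSOX10 #2 and between 12 and 26 in the other groups. Of all 19290 genes, 2288 were called higher in gSOX10 #2 and between 1945 and 2913 in the other groups. The share of higher genes among all called genes fell from between 66.3% and 70.2% to between 50.8% and 54.1% in gSOX10 #2 and the 4 CRT groups. The members' medians stayed above 0 there, between 0.42 and 1.22. Library by library, the members' median over the parental mean lay between -0.14 and 0.10 in the parental libraries and between 0.43 and 1.68 in the other 18, lowest in CRT34 DMSO replicate 1 and highest in CRT35 Combo replicate 1.

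**Figure D1:**
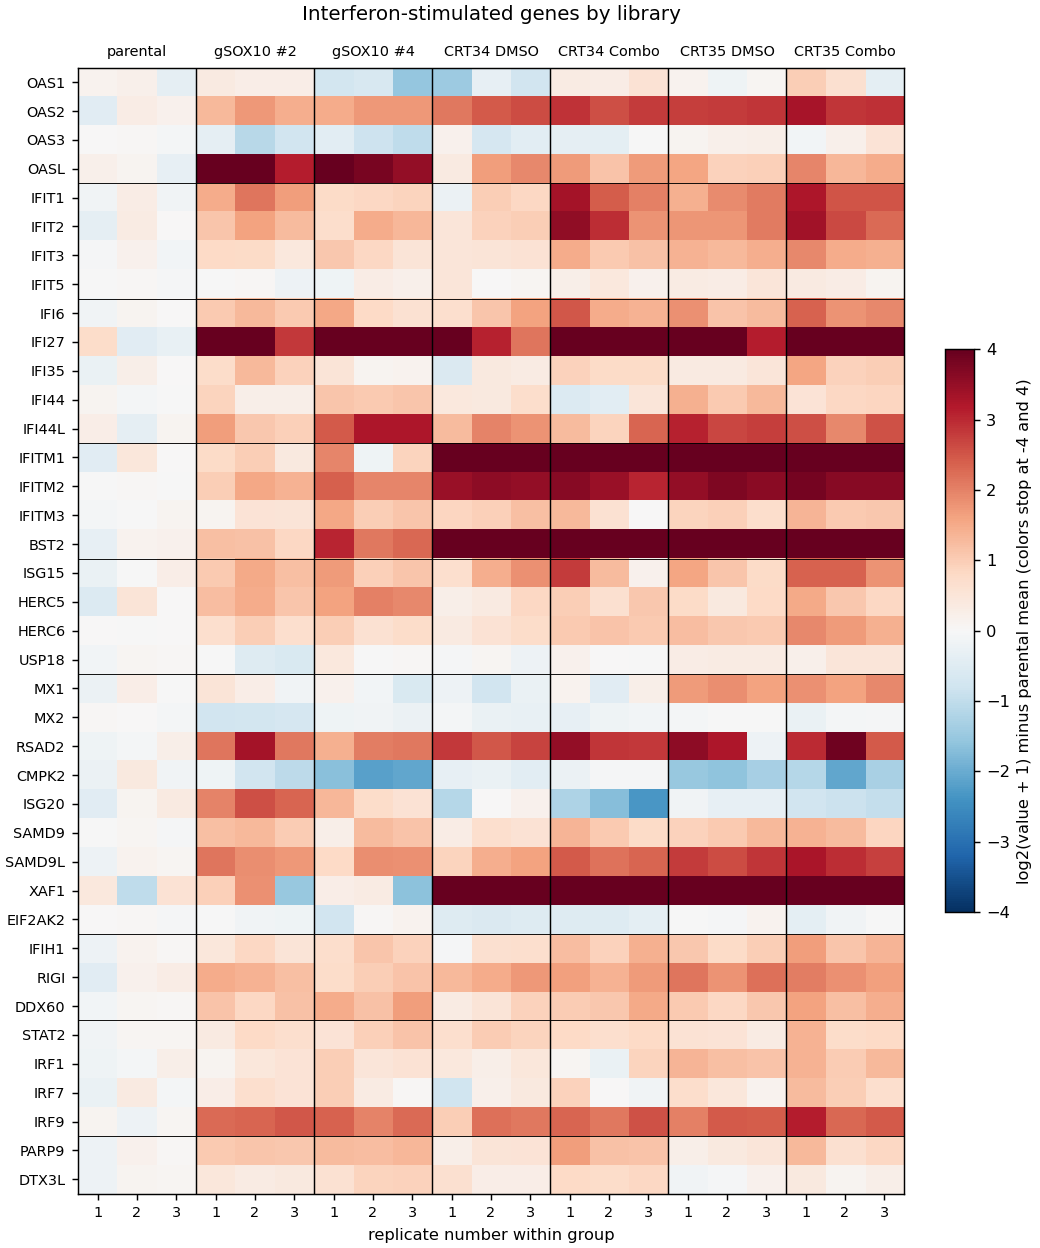
Heat map of 39 interferon-stimulated genes (rows, grouped by role) in 21 libraries (columns, 3 replicates in each of 7 groups); color is log2(value + 1) minus the gene's parental mean, stopped at a difference of 4 in either direction. BST2, IFITM1 and XAF1 are darkest in the 12 CRT libraries, OASL in the 6 libraries of the clones, and IFI27 in nearly all 18 derived libraries.

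The same 10 members were called higher in all 6 derived groups, namely OAS2, OASL, IFI27, IFI44L, IFITM2, BST2, ISG15, RSAD2, SAMD9L and IRF9. Another 9 were called in none (OAS1, OAS3, IFIT5, USP18, MX2, EIF2AK2, STAT2, IRF7 and DTX3L), which leaves 20 called in some groups only. IFITM1 and XAF1 were higher in all 4 CRT groups and called in neither clone, and MX1 and IRF1 were higher in both CRT35 groups and called in neither CRT34 group. No member was higher in both clones and called in no CRT group. Only CMPK2 and ISG20 were lower in any group. The share of all genes with such patterns was not computed, so these counts are a description. With log2(value + 10) in place of log2(value + 1), IFI27, ISG15 and RSAD2 were no longer called in every derived group.

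Several of the widest differences lay among the restriction factors of the cell membrane. BST2, or tetherin, holds budding virus particles at the cell surface, and lies on chromosome 19 (chr19:17402939-17405630, minus strand, GRCh38). BST2 read 80.5, 113 and 116 in the parental libraries, 234, 232 and 184 in gSOX10 #2, 855, 439.9 and 508 in gSOX10 #4, 3296, 4149 and 5069 in CRT34 DMSO, 5469, 4534 and 2936 in CRT34 Combo, 6851, 6270.4 and 5585 in CRT35 DMSO and 10449.8, 7709.6 and 6239 in CRT35 Combo. No groups overlapped among parental, gSOX10 #2, gSOX10 #4 and the CRT libraries, in that order from low to high. The log2 difference from the parental line was 1.07 ± 0.26 in gSOX10 #2 (adjusted p = 0.00284), 2.49 ± 0.26 in gSOX10 #4 (adjusted p = 7.34e-07) and between 5.32 and 6.27 in the CRT groups. Without parental replicate 1 the gSOX10 #2 difference was 0.90 and was no longer called.

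The IFITM proteins hinder the fusion of virus and cell membranes, and their 3 genes lie side by side on chromosome 11. IFITM1 read 29.1, 56.1 and 40.9 in the parental libraries, 69.8, 80.8 and 53.5 in gSOX10 #2, 160.4, 35.6 and 76.2 in gSOX10 #4, 1846, 4648 and 3555 in CRT34 DMSO, 2629, 2080.4 and 2303 in CRT34 Combo, 1496, 1693 and 1531 in CRT35 DMSO and 2016, 1233 and 1451 in CRT35 Combo. Its values in both clones overlapped the parental ones, and the CRT libraries all lay at 1233 or more. IFITM2 read 900.4, 939 and 901 in the parental libraries, 1798, 2690.3 and 2402 in gSOX10 #2, 4812, 3522 and 3563 in gSOX10 #4, 10063, 10945 and 10379.7 in CRT34 DMSO, 11493, 10016 and 7609 in CRT34 Combo, 10468, 12271 and 11181 in CRT35 DMSO and 12980.1, 11453 and 11514 in CRT35 Combo. Here parental, gSOX10 #2, gSOX10 #4 and CRT libraries formed separate and rising ranges. IFITM1 differed from the parental line by 0.71 ± 0.40 in gSOX10 #2 (adjusted p = 0.164) and 0.89 ± 0.40 in gSOX10 #4 (adjusted p = 0.0906), and by between 5.21 and 6.23 in the CRT groups. Without gSOX10 #4 replicate 2, the IFITM1 difference of that clone was 1.42 and was called. IFITM2 differed by 1.31 ± 0.16 and 2.10 ± 0.16 in the clones and by between 3.39 and 3.71 in the CRT groups. IFITM3 averaged 5631 in the parental line and between 7462 and 13277 in the other groups, and was called higher in gSOX10 #4 (1.22 ± 0.23), CRT34 DMSO (1.01 ± 0.23) and CRT35 Combo (1.15 ± 0.23). The CRT34 DMSO call was lost without parental replicate 1 (0.96) or CRT34 DMSO replicate 3 (0.92). The IFITM genes are close paralogs, so reads may have been split among them in the counting.

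**Figure D2:**
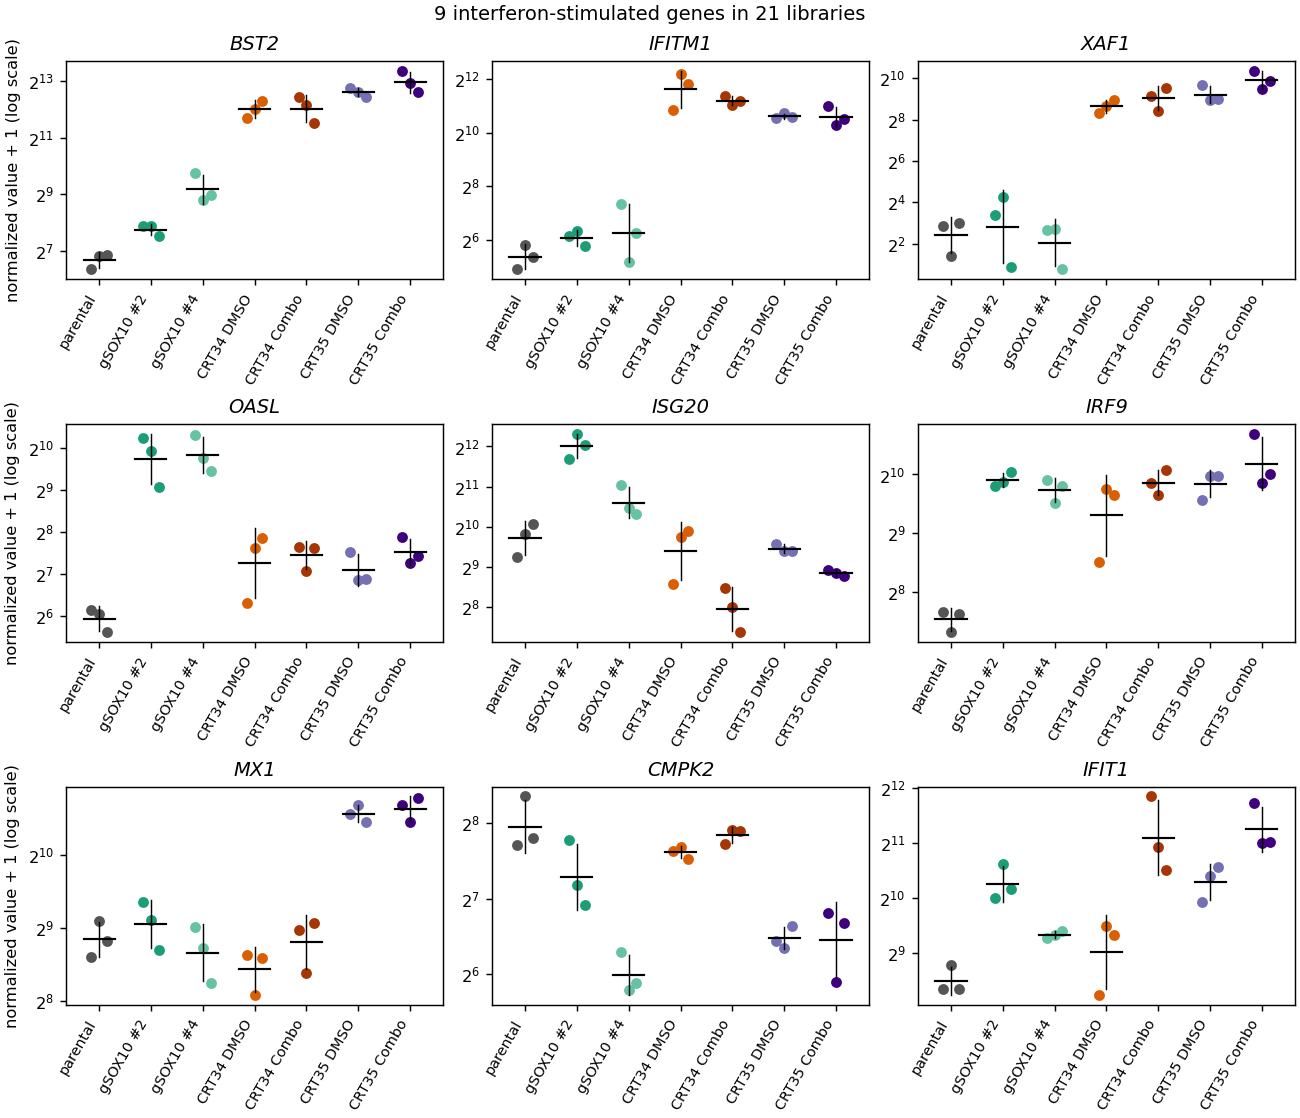
Normalized value + 1 (log scale) of 9 interferon-stimulated genes in each of 21 libraries, by group; points are libraries, the horizontal bar is the mean of log2(value + 1) and the vertical line its SD over 3 libraries. XAF1 lies below 20 in all parental and clone libraries and above 317 in all CRT libraries, and OASL is higher in the clones than in any CRT library.

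The oligoadenylate synthetases OAS1, OAS2 and OAS3 sense double-stranded RNA and make the short oligoadenylates that activate RNase L, while OASL lacks this activity and binds the RNA sensor RIG-I. OASL read 69.7, 64.9 and 47.6 in the parental libraries, 1193, 960.0 and 536 in gSOX10 #2, 1258, 855 and 691 in gSOX10 #4, 77.3, 193 and 231 in CRT34 DMSO, 197, 132 and 195 in CRT34 Combo, 182, 114 and 116 in CRT35 DMSO and 233, 151 and 171 in CRT35 Combo. The clones lay highest, the CRT libraries between, and the parental libraries lowest, with no overlap. Its log2 difference from the parental line was 3.80 ± 0.38 and 3.89 ± 0.38 in the clones (adjusted p = 3.21e-07 and 2.4e-07) and between 1.15 and 1.59 in the CRT groups. OAS2 read 261, 434 and 400.4 in the parental libraries, 871, 1184 and 979 in gSOX10 #2, 992, 1199 and 1190.5 in gSOX10 #4, 1555, 1959 and 2202 in CRT34 DMSO, 2662, 2129 and 2486 in CRT34 Combo, 2428, 2492 and 2588 in CRT35 DMSO and 3540.5, 2618 and 2720.5 in CRT35 Combo. All libraries of the clones lay above the parental ones and below the CRT ones. OAS2 differed by 1.49 ± 0.19 and 1.65 ± 0.19 in the clones and by between 2.40 and 3.04 in the CRT groups. OAS1 read 574, 598 and 403 in the parental libraries, 657, 622 and 626 in gSOX10 #2, 312, 328 and 175 in gSOX10 #4, 187, 411 and 305 in CRT34 DMSO, 649, 629.8 and 772 in CRT34 Combo, 566, 455 and 548 in CRT35 DMSO and 1031, 812 and 390.3 in CRT35 Combo. OAS1 was called against the parental line in none of the groups. The gSOX10 #4 libraries lay wholly below it (log2 -0.98 ± 0.32, adjusted p = 0.0222) and CRT34 DMSO partly (log2 -0.85 ± 0.32, adjusted p = 0.0408). Quantile normalization put OAS1 past 2-fold in both (-1.04 and -1.05), as did leaving out parental replicate 3, gSOX10 #4 replicate 1 or gSOX10 #4 replicate 2 for the clone (-1.16, -1.11 and -1.14) and parental replicate 3 or CRT34 DMSO replicate 2 for CRT34 DMSO (-1.03 and -1.11). OAS3 averaged 7462 in the parental line, 4549 and 4479 in the clones and between 6219 and 8806 in the CRT groups, with log2 differences between -0.76 and 0.22. OAS1, OAS3 and OAS2 are adjacent on chromosome 12, so the uncalled OAS1 and OAS3 are neighbors of the called OAS2. The OASL call in CRT34 DMSO was lost without CRT34 DMSO replicate 3 (1.02) and that in CRT35 DMSO without parental replicate 3 (0.99) or CRT35 DMSO replicate 1 (0.93).

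IFIT proteins bind the ends of foreign RNA and block its translation. IFIT1 read 326, 440.0 and 324 in the parental libraries, 1018, 1574 and 1147 in gSOX10 #2, 619, 640.2 and 674 in gSOX10 #4, 302, 715 and 646 in CRT34 DMSO, 3661, 1931 and 1456 in CRT34 Combo, 976, 1343 and 1507 in CRT35 DMSO and 3367, 2048 and 2074 in CRT35 Combo. IFIT2 read 196, 318 and 254 in the parental libraries, 547, 767 and 599.8 in gSOX10 #2, 410.2, 698 and 635 in gSOX10 #4, 354, 472 and 502 in CRT34 DMSO, 2923, 1966 and 876 in CRT34 Combo, 855, 864 and 1055 in CRT35 DMSO and 2605, 1586 and 1203 in CRT35 Combo. Every IFIT2 library outside the parental line lay above it, whereas IFIT1 in CRT34 DMSO overlapped the parental range. IFIT1 was called higher in gSOX10 #2 (1.76 ± 0.33), CRT35 DMSO (1.80 ± 0.33), CRT34 Combo (2.59 ± 0.33) and CRT35 Combo (2.75 ± 0.33), and IFIT2 in these and in gSOX10 #4 (1.17 ± 0.35). The gSOX10 #4 call for IFIT2 was lost without parental replicate 1 (0.99, adjusted p = 0.0643) or gSOX10 #4 replicate 2 (1.02, adjusted p = 0.0536). IFIT3 read 1069.9, 1242 and 1014 in the parental libraries, 1933, 1872 and 1481 in gSOX10 #2, 2339, 1981 and 1595 in gSOX10 #4, 1552, 1584 and 1639 in CRT34 DMSO, 3107, 2294 and 2466 in CRT34 Combo, 2907, 2689 and 3052 in CRT35 DMSO and 4201, 3106 and 2992 in CRT35 Combo. IFIT3 too lay above the parental range in all 18 derived libraries, and it was called in CRT35 DMSO, CRT34 Combo and CRT35 Combo, with log2 differences of 1.38 ± 0.16, 1.23 ± 0.16 and 1.62 ± 0.16. IFIT5, the last gene of the cluster, averaged 3813 in the parental line and between 3691 and 4906 in the other groups and was called in none.

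IFI6 and IFI27 encode small membrane proteins of the endoplasmic reticulum and mitochondria, and IFI35 a cytoplasmic partner of NMI. IFI27 read 1.26, 0 and 0.112 in the parental libraries, 67.3, 37.3 and 8.57 in gSOX10 #2, 85.2, 33.3 and 26.9 in gSOX10 #4, 73, 10.6 and 5.02 in CRT34 DMSO, 59.7, 38.1 and 35.3 in CRT34 Combo, 75, 52.5 and 10.9 in CRT35 DMSO and 72.6, 32.7 and 30.1 in CRT35 Combo. Parental libraries were at or near 0 and all others at 5 or more, with a wide spread inside each group. Its log2(value + 1) difference lay between 3.67 and 5.02, with an SE of 0.86, a scale that understates the change of such a low gene. IFI44L read 222, 144 and 198 in the parental libraries, 594, 394 and 359.8 in gSOX10 #2, 1014, 1765 and 1744 in gSOX10 #4, 448, 743 and 652 in CRT34 DMSO, 446, 343 and 932 in CRT34 Combo, 1554, 1197 and 1270.2 in CRT35 DMSO and 1109, 699.7 and 1078 in CRT35 Combo. IFI6 read 265, 318 and 296 in the parental libraries, 605, 721 and 607 in gSOX10 #2, 848, 508 and 446 in gSOX10 #4, 468, 636 and 890.0 in CRT34 DMSO, 1639, 824 and 761 in CRT34 Combo, 1043, 651 and 702 in CRT35 DMSO and 1505, 1015 and 1107 in CRT35 Combo. Both genes lay above the parental range in all 18 derived libraries, with IFI44L highest in gSOX10 #4 and CRT35 DMSO. IFI44L differed by 1.24 ± 0.33 in gSOX10 #2, 2.97 ± 0.33 in gSOX10 #4, 1.69 ± 0.33 and 2.84 ± 0.33 in CRT34 and CRT35 DMSO, and 1.49 ± 0.33 and 2.34 ± 0.33 with the inhibitors. IFI6 differed by between 0.98 and 2.02 and was called in each group but gSOX10 #4. In gSOX10 #4, IFI6 was called without parental replicate 2 (1.04), gSOX10 #4 replicate 2 (1.07) or gSOX10 #4 replicate 3 (1.16), and in CRT34 DMSO it was lost without CRT34 DMSO replicate 3 (0.90). IFI44, beside IFI44L on chromosome 1, was called in gSOX10 #4 (1.09 ± 0.22) and CRT35 DMSO (1.24 ± 0.22). IFI35 was called in CRT35 Combo only (1.16 ± 0.23), a call lost without CRT35 Combo replicate 1 (0.95). It stood at 0.99 ± 0.23 in gSOX10 #2, where it was called without parental replicate 2 (1.11), gSOX10 #2 replicate 1 (1.11) or gSOX10 #2 replicate 3 (1.02).

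ISG15 is a ubiquitin-like protein that HERC5 attaches to other proteins and USP18 removes, and HERC6 is a relative of HERC5. ISG15 read 118, 142 and 173 in the parental libraries, 294, 409 and 332 in gSOX10 #2, 469.8, 279 and 307 in gSOX10 #4, 229, 396 and 511 in CRT34 DMSO, 992, 346 and 161 in CRT34 Combo, 432, 306 and 245 in CRT35 DMSO and 734, 730.3 and 496 in CRT35 Combo. CRT34 Combo overlapped the parental range through its replicate 3, and no other group did. Differences ran from 1.15 ± 0.45 in CRT35 DMSO (adjusted p = 0.0474) to 2.16 ± 0.45 in CRT35 Combo (adjusted p = 0.000581), and the latter was the only ISG15 call held without each library in turn. The calls in gSOX10 #2, gSOX10 #4, CRT34 DMSO and CRT35 DMSO were lost without parental replicate 1 (1.12, 1.12, 1.19 and 1.02) and without parental replicate 2 (1.25, 1.26, 1.32 and 1.15), and that in CRT35 DMSO also without parental replicate 3 (1.29). They were lost as well without gSOX10 #2 replicate 2 (1.13) or replicate 3 (1.27), gSOX10 #4 replicate 1 (1.03) or replicate 3 (1.34), CRT34 DMSO replicate 2 (1.26) or replicate 3 (1.07), and CRT35 DMSO replicate 1 (0.93) or replicate 2 (1.18). The call in CRT34 Combo was lost without parental replicate 1 (1.28) or CRT34 Combo replicate 1 (0.72).

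HERC5 read 105, 222 and 157 in the parental libraries, 365, 428 and 337 in gSOX10 #2, 473, 621 and 589 in gSOX10 #4, 181, 200.0 and 275 in CRT34 DMSO, 304, 239 and 329.7 in CRT34 Combo, 264, 201 and 266 in CRT35 DMSO and 440.3, 328 and 275 in CRT35 Combo. HERC5 was highest in the clones, and both DMSO groups overlapped the parental range. It was called in gSOX10 #2 (1.28 ± 0.26), gSOX10 #4 (1.85 ± 0.26) and CRT35 Combo (1.14 ± 0.26), the last lost without parental replicate 1 (0.87) or CRT35 Combo replicate 1 (0.96). CRT34 Combo joined them without parental replicate 2 (1.16) or CRT34 Combo replicate 2 (1.04). HERC6 read 525, 515 and 529 in the parental libraries, 835, 1035 and 826 in gSOX10 #2, 1039, 797 and 875 in gSOX10 #4, 676, 788 and 873 in CRT34 DMSO, 1088, 1153 and 1081 in CRT34 Combo, 1237, 1101 and 1087 in CRT35 DMSO and 1964, 1697 and 1402 in CRT35 Combo. All derived libraries exceeded the parental ones, whose HERC6 values hardly varied. HERC6 was called in CRT35 DMSO (1.12 ± 0.15), CRT34 Combo (1.08 ± 0.15) and CRT35 Combo (1.67 ± 0.15) and stood at 0.77 and 0.78 in the clones. USP18 averaged 617 in the parental line, between 479.9 and 814 elsewhere, and was called in no group, so the gene of the enzyme that removes ISG15 differed by -0.38 to 0.40 on the log2 scale.

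Among the other effectors, XAF1, a binding partner of the apoptosis inhibitor XIAP, showed the widest range of all 39. XAF1 read 6.16, 1.65 and 6.98 in the parental libraries, 9.4, 18 and 0.848 in gSOX10 #2, 5.44, 5.62 and 0.698 in gSOX10 #4, 317, 409 and 490.5 in CRT34 DMSO, 569, 335 and 745 in CRT34 Combo, 811, 492 and 501 in CRT35 DMSO and 1300.4, 708 and 941 in CRT35 Combo. The parental and clone libraries overlapped at 18 or less, and every CRT library lay far above them. XAF1 differed by 0.42 ± 0.67 and -0.35 ± 0.67 in the clones (adjusted p = 0.641 and 0.717) and by 6.23 ± 0.67, 6.78 ± 0.67, 6.62 ± 0.67 and 7.48 ± 0.67 in CRT34 DMSO, CRT35 DMSO, CRT34 Combo and CRT35 Combo. ISG20 read 614, 901 and 1082 in the parental libraries, 3326, 5051 and 4215 in gSOX10 #2, 2095, 1409 and 1269.8 in gSOX10 #4, 379.8, 856 and 955 in CRT34 DMSO, 357, 257 and 166 in CRT34 Combo, 765, 676 and 672 in CRT35 DMSO and 489.8, 461 and 436 in CRT35 Combo. ISG20, an RNA exonuclease, lay above the parental range in both clones, within or across it in both DMSO groups and below it in both Combo groups. It was called higher in gSOX10 #2 (2.29 ± 0.32) and lower in CRT34 Combo (-1.76 ± 0.32), and stood at 0.88 ± 0.32 in gSOX10 #4, where leaving out gSOX10 #4 replicate 3 (1.03) or parental replicate 3 (1.06) made it a call. CRT35 Combo was called lower without parental replicate 1 (-1.09). SAMD9 and SAMD9L are adjacent antiviral genes on chromosome 7. SAMD9L averaged 753 in the parental line, 2827 and 2225 in the clones and between 1901 and 6024 in the CRT groups, with differences of 1.31 to 2.99, all called. SAMD9 was called in gSOX10 #2 (1.16 ± 0.21), CRT35 DMSO (1.09 ± 0.21), CRT34 Combo (1.06 ± 0.21) and CRT35 Combo (1.17 ± 0.21). The SAMD9 call in CRT35 DMSO was lost without CRT35 DMSO replicate 3 (0.99) and that in CRT34 Combo without CRT34 Combo replicate 1 (0.92), while gSOX10 #4 was called without its replicate 1 (1.19).

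RSAD2 (viperin), which turns a nucleotide into a terminator of viral RNA synthesis, and CMPK2, a mitochondrial nucleotide kinase, overlap on chromosome 2 (CMPK2 at chr2:6840570-6866635 on the minus strand, RSAD2 at chr2:6865557-6898239 on the plus strand). RSAD2 read 0.754, 0.853 and 1.3 in the parental libraries, 7.71, 18.5 and 7.49 in gSOX10 #2, 4.29, 7.13 and 7.46 in gSOX10 #4, 12.9, 10 and 11.7 in CRT34 DMSO, 21.3, 13.3 and 12.9 in CRT34 Combo, 22.4, 17.6 and 0.706 in CRT35 DMSO and 14.3, 28 and 9.67 in CRT35 Combo. All derived libraries but CRT35 DMSO replicate 3 lay above the parental ones, at low values throughout. Its log2(value + 1) differences ran from 1.87 ± 0.71 to 3.10 ± 0.71. The gSOX10 #4 call was lost on leaving out any 1 of the 6 libraries compared (1.75 to 2.08, adjusted p = 0.0506 to 0.105), and the CRT35 DMSO call without CRT35 DMSO replicate 1 (1.52) or replicate 2 (1.69). CMPK2 read 208, 327 and 223 in the parental libraries, 218, 144 and 119.5 in gSOX10 #2, 77.3, 54.3 and 58 in gSOX10 #4, 197, 205 and 184 in CRT34 DMSO, 211, 239.9 and 237 in CRT34 Combo, 85.5, 80.5 and 98.2 in CRT35 DMSO and 111, 58.1 and 101 in CRT35 Combo. CMPK2 went the other way and was called lower in gSOX10 #4 (-1.97 ± 0.27), CRT35 DMSO (-1.48 ± 0.27) and CRT35 Combo (-1.50 ± 0.27), where no library reached the parental range. A stranded and an unstranded kit are named by the study's methods and by the labels, and without strand the reads of the overlap could not be assigned.

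The dynamin-like GTPases MX1 and MX2 trap incoming viruses. MX1 read 388, 544 and 452 in the parental libraries, 1505, 1650.2 and 1403 in CRT35 DMSO and 1638, 1399 and 1752 in CRT35 Combo, and stayed at or below 654 in the other groups. Only CRT35 was separate from the parental range, by 1.73 ± 0.23 in DMSO (adjusted p = 8.22e-06) and 1.80 ± 0.23 with the inhibitors (adjusted p = 3.88e-06). MX2, the gene next to it on chromosome 21, differed by -0.71 ± 0.10 in gSOX10 #2 (adjusted p = 1.49e-05, under 2-fold) and by -0.21 to -0.04 in the other groups. EIF2AK2, the kinase PKR that halts translation on double-stranded RNA, differed by -0.53 to 0.03 and was called in no group.

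The RNA sensors RIGI and IFIH1 (MDA5) start interferon production, and DDX60 is a helicase linked to them. RIGI read 262, 406 and 439 in the parental libraries, 1004, 938 and 827 in gSOX10 #2, 599, 709.7 and 799 in gSOX10 #4, 884, 1011 and 1191 in CRT34 DMSO, 1129.7, 938 and 1173 in CRT34 Combo, 1595, 1268 and 1673 in CRT35 DMSO and 1486, 1282 and 1115 in CRT35 Combo. DDX60 read 349, 401 and 388 in the parental libraries, 843, 675 and 852 in gSOX10 #2, 1056, 850.3 and 1213 in gSOX10 #4, 479, 546 and 724 in CRT34 DMSO, 766, 795 and 1074 in CRT34 Combo, 776, 668 and 798 in CRT35 DMSO and 1161, 871 and 1036 in CRT35 Combo. IFIH1 read 283, 357 and 338 in the parental libraries, 442, 572 and 466 in gSOX10 #2, 532, 704 and 612 in gSOX10 #4, 317, 509 and 513 in CRT34 DMSO, 764, 617 and 868 in CRT34 Combo, 682, 552 and 648 in CRT35 DMSO and 1043, 703 and 838 in CRT35 Combo. RIGI and DDX60 lay above the parental range in every derived library, and IFIH1 in all but CRT34 DMSO replicate 1. RIGI was called in each group but gSOX10 #4 (0.95 ± 0.19), with differences up to 2.06 ± 0.19 in CRT35 DMSO, and DDX60 in both clones (1.05 ± 0.19 and 1.44 ± 0.19) and both Combo groups (1.20 ± 0.19 and 1.42 ± 0.19). IFIH1 was called only in the Combo groups (1.19 ± 0.21 and 1.39 ± 0.21). Without parental replicate 1 or gSOX10 #2 replicate 3 the DDX60 difference in gSOX10 #2 was 0.99 and not called. In gSOX10 #4, RIGI was called without parental replicate 2 (1.04), parental replicate 3 (1.09) or gSOX10 #4 replicate 1 (1.06), and the last also brought in IFIH1 (1.02). In CRT35 DMSO, DDX60 and IFIH1 were called without parental replicate 2 (1.02 and 1.01) or CRT35 DMSO replicate 2 (1.05 and 1.03).

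The transcription factors of the response moved unevenly. IRF9 read 202, 159 and 198 in the parental libraries, 889, 936 and 1051 in gSOX10 #2, 959, 731 and 891 in gSOX10 #4, 366, 863 and 802 in CRT34 DMSO, 925, 806 and 1079 in CRT34 Combo, 761, 1010.5 and 1008 in CRT35 DMSO and 1652, 924 and 1026 in CRT35 Combo. IRF9, the DNA-binding partner of STAT2, lay above the parental range in all 18 derived libraries, by 1.77 ± 0.27 in CRT34 DMSO to 2.64 ± 0.27 in CRT35 Combo (adjusted p from 3.88e-05 to 2.12e-07). IRF1 read 942, 1008 and 1245 in the parental libraries, 1144, 1463 and 1561 in gSOX10 #2, 2075, 1467 and 1565 in gSOX10 #4, 1417, 1238 and 1433 in CRT34 DMSO, 1111, 885 and 1979.5 in CRT34 Combo, 2692, 2434 and 2331 in CRT35 DMSO and 2762, 2118 and 2609.6 in CRT35 Combo. IRF1, which interferon gamma induces strongly, was called only in CRT35 DMSO (1.23 ± 0.22) and CRT35 Combo (1.23 ± 0.22), where all libraries lay above the parental range. STAT2 averaged 2324 in the parental line and between 3259 and 4645 elsewhere, with differences of 0.49 to 0.97, all under 2-fold with an adjusted p of 0.0305 or lower. It was called in gSOX10 #4 without gSOX10 #4 replicate 1 (1.05) and in CRT35 Combo without parental replicate 2 (1.01), parental replicate 3 (1.01), CRT35 Combo replicate 2 (1.09) or CRT35 Combo replicate 3 (1.06). IRF7, which amplifies interferon production, averaged 55.1 in the parental line and between 54.7 and 109 elsewhere, and was called in no group, though CRT35 Combo was called without parental replicate 2 (1.15) or CRT35 Combo replicate 3 (1.12).

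PARP9 and DTX3L form a complex that adds ADP-ribose and ubiquitin to other proteins, and their genes lie head to head on chromosome 3. PARP9 read 1063, 1363 and 1246 in the parental libraries, 2526, 2629.8 and 2581 in gSOX10 #2, 2915, 2844 and 3040.3 in gSOX10 #4, 1429, 1741 and 1796 in CRT34 DMSO, 3869, 2769.7 and 2709 in CRT34 Combo, 1441, 1581 and 1689 in CRT35 DMSO and 3017, 1889.7 and 2153 in CRT35 Combo. PARP9 exceeded the parental range in every derived library and was called in gSOX10 #2 (1.08 ± 0.17), gSOX10 #4 (1.27 ± 0.17) and CRT34 Combo (1.34 ± 0.17), the first lost without parental replicate 1 (0.98). CRT35 Combo passed 2-fold without parental replicate 2 (1.00) or CRT35 Combo replicate 2 (1.06). DTX3L differed by 0.00 to 0.81 and was called in no group.

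Both clones were compared with each other, with 2 members higher and 3 lower in gSOX10 #4 than in gSOX10 #2 (all genes, 2.64% and 7.06%) and a median difference of 0.09. The count of lower members lay near the share over all genes, and the count of higher members rests on 2 genes. IFI44L (1.73 ± 0.33, adjusted p = 0.000922) and BST2 (1.41 ± 0.26, adjusted p = 0.000781) were higher in gSOX10 #4, and OAS1 (-1.27 ± 0.32), CMPK2 (-1.30 ± 0.27) and ISG20 (-1.41 ± 0.32) were lower. The 3 libraries of each clone did not overlap for BST2, OAS1, IFI44L or ISG20, as the values above show, nor for CMPK2. Without gSOX10 #4 replicate 3 the OAS1 difference was -0.99 and not called, and without gSOX10 #2 replicate 3 XAF1 was called lower (-1.75). Under quantile normalization the share of higher genes among all called genes was 40.8% in place of 27.2%, with the same number of members called in each direction.

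The CRT lines in DMSO were set against the clones without passing through the parental libraries, in a comparison added after the data were seen. XAF1 (log2 6.47 ± 0.48), IFITM1 (4.94 ± 0.29), BST2 (3.84 ± 0.19), IFITM2 (1.86 ± 0.11) and OAS2 (1.03 ± 0.13) were higher in the CRT lines, and OASL (-2.61 ± 0.27) and ISG20 (-1.88 ± 0.22) were lower. These are 5 members higher and 2 lower, against 10.4% and 8.36% of all genes, and the members' median difference was 0.10. The higher count lay near the share over all genes, and the lower count did not exceed it. The adjusted p was 5.53e-12 for BST2 and 2.12e-07 for OASL. XAF1 passed the filter only through the CRT groups, so its difference is a description. The other 32 members stayed within 2-fold, from HERC5 at the low end, just short of it, to OAS3 (0.69). HERC5 passed 2-fold under equal totals, under quantile normalization and on leaving out any of 6 single libraries (-1.01 to -1.09). Of these 6 libraries, 3 were of the clones (gSOX10 #2 replicates 1 and 3, gSOX10 #4 replicate 1) and 3 were of the CRT lines (CRT34 DMSO replicate 3, CRT35 DMSO replicates 1 and 3). The OAS2 call was lost without gSOX10 #2 replicate 1 (0.98), gSOX10 #4 replicate 1 (0.99) or CRT34 DMSO replicate 3 (0.98).

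**Figure D3:**
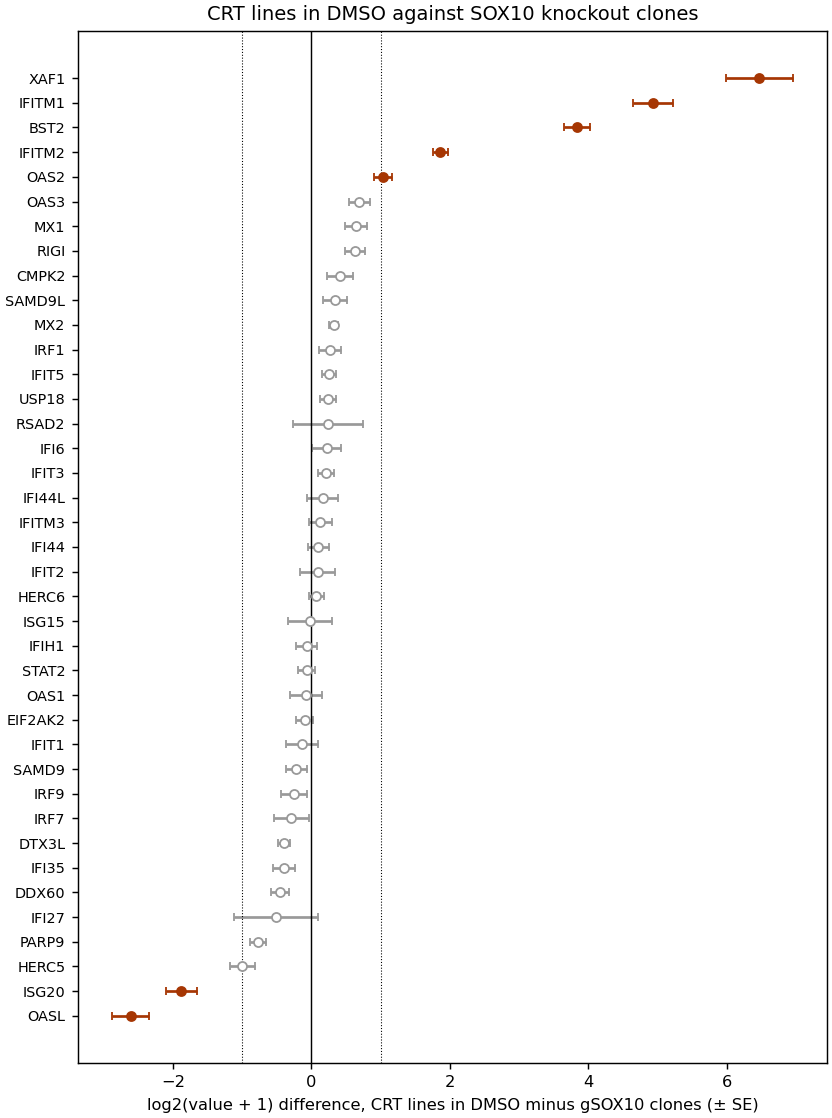
Difference of log2(value + 1), CRT34 and CRT35 in DMSO minus both SOX10 knockout clones, with SE, for 39 members ordered by size; filled points are called and dotted lines mark 2-fold. The called members lie at both ends, XAF1 at 6.47 and OASL at -2.61, and the other 32 lie within 2-fold, up to 0.69.

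Between the CRT lines in DMSO, 5 members were higher and 1 lower in CRT35 than in CRT34 (all genes, 3.69% and 4.42%), with a median of 0.49 against 0.00 over all genes. MX1 (2.14 ± 0.23, adjusted p = 5.41e-06), SAMD9L (1.44 ± 0.24), IFIT1 (1.27 ± 0.33), IFI44L (1.15 ± 0.33) and IFIT2 (1.07 ± 0.35, adjusted p = 0.0446) were higher, and CMPK2 (-1.14 ± 0.27) was lower. CRT35 DMSO lay wholly above CRT34 DMSO for MX1, SAMD9L, IFIT1, IFIT2 and IFI44L. Without CRT35 DMSO replicate 3 or CRT34 DMSO replicate 1, IFIT1 (1.14 and 0.88), IFIT2 (0.97 and 0.92) and IFI44L (1.18 and 0.94) were no longer called. IFIT2 was also lost without any other of the 6 libraries (1.11 to 1.17 in those 4 fits), and IFI44L without CRT35 DMSO replicate 1 (1.04). IFITM1 was called lower in CRT35 without CRT34 DMSO replicate 1 (-1.37) and OAS1 higher without CRT34 DMSO replicate 2 (1.12).

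The inhibitors were then compared with solvent within each line. In CRT34, 3 members were higher with the inhibitors and 1 lower (all genes, 2.84% and 2.26%), with a median of 0.36 against 0.00. IFIT1 (2.07 ± 0.33, adjusted p = 0.000756), IFIT2 (1.97 ± 0.35, adjusted p = 0.00198) and OAS1 (1.25 ± 0.32, adjusted p = 0.0223) were higher and ISG20 (-1.45 ± 0.32, adjusted p = 0.0084) lower, and for each the CRT34 Combo libraries were apart from the CRT34 DMSO ones. Without CRT34 Combo replicate 3 and CRT35 DMSO replicate 1, 2 were higher and 1 lower. Of all 19290 genes, 941 were higher and 618 lower there, so both counts of members lay near the share over all genes. In a fit on these 6 libraries alone none of the 4 was called (adjusted p = 0.118 to 0.195), and calls over all genes went from 547 higher and 436 lower to 7 and 29. OAS1 was also lost without CRT34 Combo replicate 1 (1.28), CRT34 Combo replicate 2 (1.30), CRT34 DMSO replicate 1 (0.94) or CRT34 DMSO replicate 3 (1.29). SAMD9L (0.99 ± 0.24) was called without CRT34 Combo replicate 2 (1.07), CRT34 DMSO replicate 2 (1.06) or CRT34 DMSO replicate 3 (1.14).

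In CRT35, 0 of 39 members were called by limma in either direction (all genes, 0.487% and 0.648%), with a median of 0.25 against 0.01. At an unadjusted p under 0.05, 10 members passed in CRT35, 9 of them higher, against 15.5% of all genes. IFIT1 stood at 0.95 ± 0.33 (adjusted p = 0.164), IFIT2 at 0.89 ± 0.35 (adjusted p = 0.227) and ISG15 at 1.01 ± 0.45 (adjusted p = 0.289). CRT35 Combo replicate 1 was the highest of its group for 32 of 39 members and CRT34 DMSO replicate 1 the lowest of its group for 27. The inhibitor effects of the lines were tested against each other directly, and limma called 0 members (all genes, 0% and 0.0104%), with 4 members at an unadjusted p under 0.05 against 6.96% of all genes. That test had an SE of 0.46 for IFIT1, whose effects differed by -1.11 (adjusted p = 0.619), so the data do not show that the lines responded alike or differently. Without CRT34 Combo replicate 3 that test called 134 of all genes higher and 89 lower, and again 0 members.

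**Figure D4:**
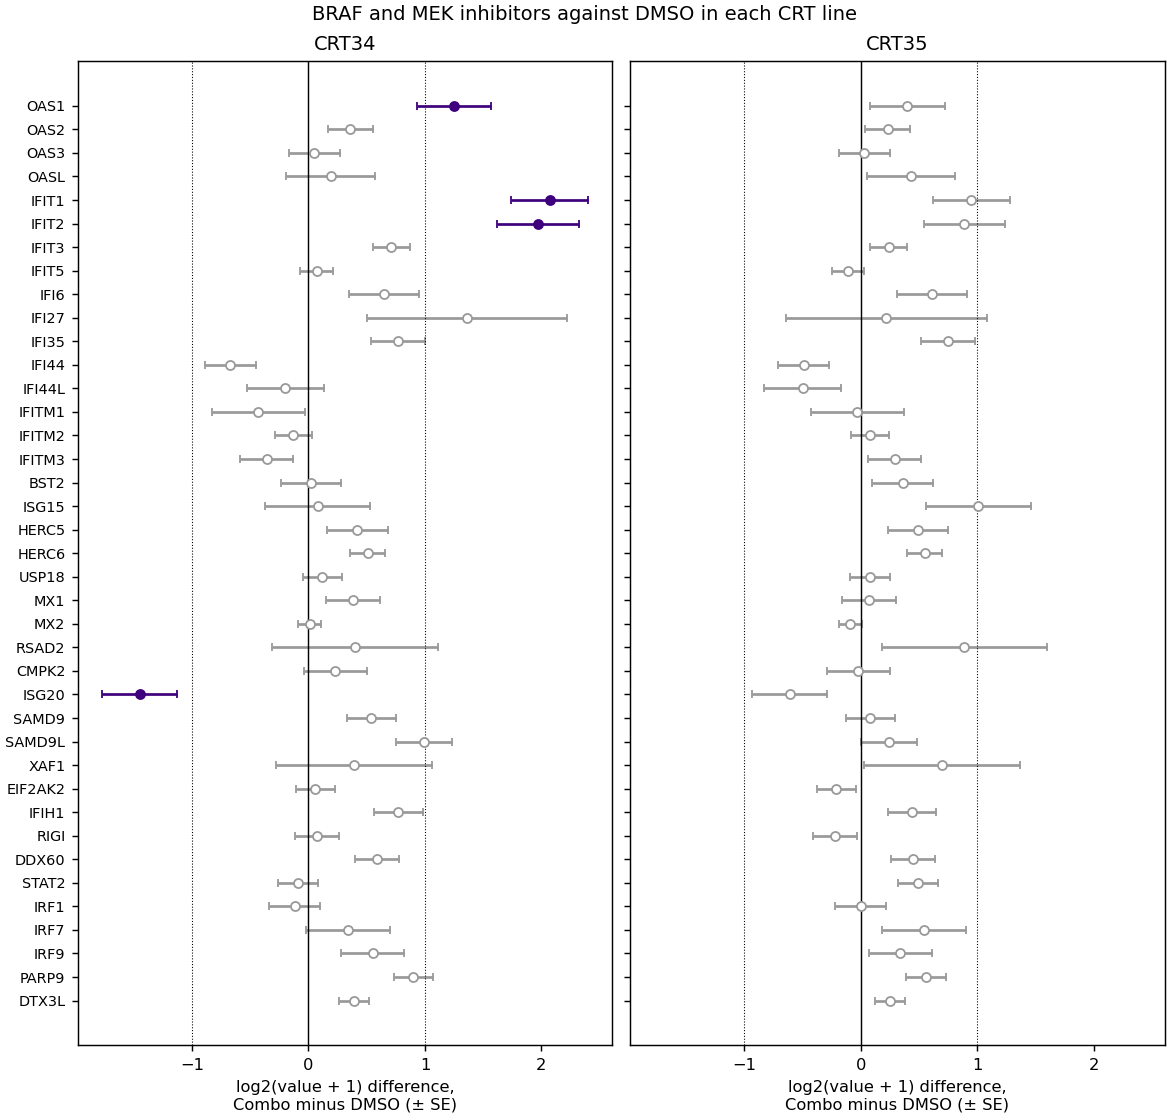
Difference of log2(value + 1), Combo minus DMSO, with SE, for 39 members in CRT34 (left) and CRT35 (right); filled points are called and dotted lines mark 2-fold. IFIT1, IFIT2 and OAS1 lie above 1 and ISG20 below -1 in CRT34, and no member is called in CRT35.

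Many of these genes are neighbors. In the GENCODE annotation of GRCh38, 22 of the 39 lie within 2 protein-coding genes of another member, in 9 clusters, and neighbors often differed. On chromosome 10, IFIT2, IFIT3 and IFIT1 were each called in at least 3 derived groups and IFIT5 in none. On chromosome 12, OAS2 was called in all 6 and OAS1 and OAS3 in none. On chromosome 11, the 3 IFITM genes span chr11:303655-329475, and IFITM1 rose by at least 5.21 in the CRT groups while IFITM3 differed by at most 1.15 there. CMPK2 and RSAD2 were called in opposite directions in gSOX10 #4 and both CRT35 groups.

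**Figure D5:**
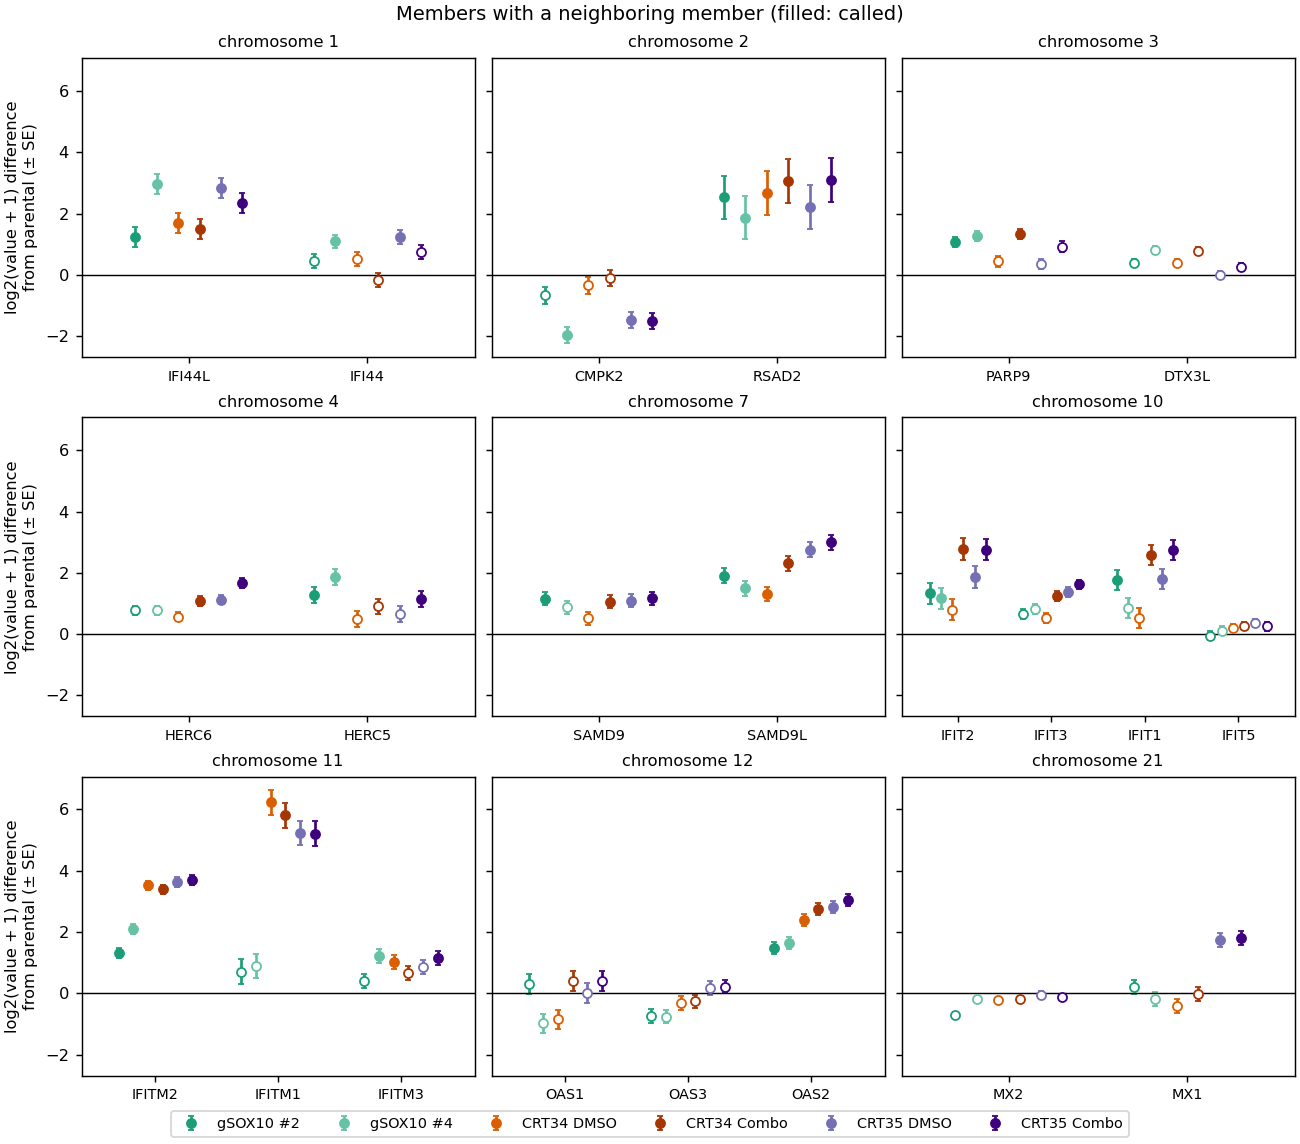
Difference of log2(value + 1) from the parental line, with SE, for 22 members that lie near another member, 1 panel for each of 9 clusters and 1 color for each of 6 groups; filled points are called. RSAD2 is above 0 and CMPK2 below 0 in every group, and in the OAS and MX panels only OAS2 and MX1 hold called points.

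Promoter sequences were looked at for the known binding motifs of the interferon response. RefSeq start sites of GRCh38.p14 gave windows of 300 bases (250 before to 50 after the start) for 32 members, and none was given for OAS2, OASL, IFIT2, IFITM2, USP18, MX2 and IRF7. The core of the interferon-stimulated response element, TTTCNNTTTC on either strand, was in a window of 22 of these 32 genes (68.8%), against 4.38% of 27305 genes. Counted by window, it was in 26 of 42 (61.9%), against 3.57% of 35116 windows of the same length. The core of the gamma-activated site, TTCNNNGAA, was in a window of 9 of the 32 (28.1%, against 9.38% of all genes), and in 4 of these (BST2, IFI27, IFITM1 and MX1) it overlapped the other core. Of the 22 members with the first core, 18 were called higher in at least 1 derived group. Of the 10 without it 7 were, among them XAF1, SAMD9L, RIGI and IRF9. The share of all genes called higher in at least 1 derived group was not computed, so these counts are a description. The 250 bases before the start are shown for BST2 (chr19:17405631-17405880, minus strand), IFI44L (chr1:78620198-78620447, plus strand), IFI27 (chr14:94110486-94110735, plus strand) and RSAD2 (chr2:6877527-6877776, plus strand). These are the members with the response element core that were called most often, ties going to the wider range. The same stretch is shown for IRF1 (chr5:132490774-132491023, minus strand) as a member with only the gamma-activated core. Capitals mark the response element core in the first 4 and the gamma-activated core in IRF1.
BST2: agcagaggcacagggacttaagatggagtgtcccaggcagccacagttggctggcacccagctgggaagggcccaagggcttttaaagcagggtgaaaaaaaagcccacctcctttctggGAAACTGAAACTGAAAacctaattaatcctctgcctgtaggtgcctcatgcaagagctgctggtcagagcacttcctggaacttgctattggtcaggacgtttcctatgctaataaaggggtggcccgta
IFI44L: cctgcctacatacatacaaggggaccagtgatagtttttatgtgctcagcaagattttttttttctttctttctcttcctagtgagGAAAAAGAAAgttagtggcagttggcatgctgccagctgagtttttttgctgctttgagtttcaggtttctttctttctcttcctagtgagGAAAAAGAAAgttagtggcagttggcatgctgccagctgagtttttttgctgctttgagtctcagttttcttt
IFI27: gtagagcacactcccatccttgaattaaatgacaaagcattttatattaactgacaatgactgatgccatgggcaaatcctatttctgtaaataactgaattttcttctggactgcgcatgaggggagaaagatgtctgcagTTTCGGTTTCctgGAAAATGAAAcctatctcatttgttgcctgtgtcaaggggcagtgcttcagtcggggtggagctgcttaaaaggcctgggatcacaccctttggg
RSAD2: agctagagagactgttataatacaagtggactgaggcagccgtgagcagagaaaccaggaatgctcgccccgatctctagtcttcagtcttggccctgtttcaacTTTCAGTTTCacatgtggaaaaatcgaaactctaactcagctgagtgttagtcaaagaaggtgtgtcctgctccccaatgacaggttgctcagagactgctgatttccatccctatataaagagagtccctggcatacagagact
IRF1: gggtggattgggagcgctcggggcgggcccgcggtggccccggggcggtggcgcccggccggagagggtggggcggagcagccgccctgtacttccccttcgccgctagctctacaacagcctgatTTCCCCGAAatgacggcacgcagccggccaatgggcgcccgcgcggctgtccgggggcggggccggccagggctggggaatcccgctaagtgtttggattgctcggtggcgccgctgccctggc
BST2 holds 2 overlapping copies of the response element core, IFI44L and IFI27 hold 2 separate copies each, and RSAD2 holds 1.

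Other genes of the pathway were taken from a list of 42 ligands, receptors, kinases, sensors and inhibitors, of which 30 entered the test. Of these 30, 5 were called higher in gSOX10 #2, 5 in gSOX10 #4, 8 in CRT34 DMSO, 7 in CRT35 DMSO, 8 in CRT34 Combo and 9 in CRT35 Combo, against 15.9%, 11.8%, 15.7%, 15.7%, 19.1% and 20.1% of all genes. The gSOX10 #2 count lay near the share over all genes, and the other counts exceeded it by few genes. All counts but that of gSOX10 #4 include SOCS1, whose calls are a description. At most 1 of the 30 was lower in each group, and the median difference lay between 0.24 and 0.63. Of 10 interferon genes only IFNE, an interferon of epithelia, passed the filter. IFNE read 21.2, 14.4 and 38.4 in the parental libraries, 110.5, 214 and 195 in gSOX10 #2, 145, 252 and 232 in gSOX10 #4, 128, 272 and 266 in CRT34 DMSO, 35.8, 119 and 136 in CRT34 Combo, 234, 172 and 181 in CRT35 DMSO and 126, 99.8 and 52.2 in CRT35 Combo. CRT34 Combo overlapped the parental range through its replicate 1, and no other derived group did. IFNE differed by 1.83 ± 0.48 in CRT34 Combo to 3.15 ± 0.48 in CRT34 DMSO and was called in all 6 groups. IFNB1 reached at most 3.04 in any library, and IFNA2, IFNK, IFNW1, IFNG and IFNL3 were at 0 in all 21.

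Of the 6 receptor genes, IL10RB, a shared chain of the interferon lambda receptor, averaged 756 in the parental line, 2144 and 1798 in the clones and between 1194 and 2624 in the CRT groups, and was called in each group but CRT34 DMSO (1.11 ± 0.19 in CRT35 DMSO to 1.78 ± 0.19 in CRT35 Combo). IFNAR1 and IFNAR2 were called in none, with differences of -0.47 to 0.30 and -0.24 to 0.57. SOCS1, a feedback inhibitor of JAK kinases, read 0, 3.42 and 1.83 in the parental libraries and averaged 10.2 and 4.92 in the clones and between 21.5 and 80.8 in the CRT groups, where it was called in all 4 (3.20 to 5.09). SOCS1 was under 10 in every parental library and passed the filter only through groups in which it was high, so its calls are a description. The SOCS1 call in gSOX10 #2 (2.24 ± 0.66) was lost without parental replicate 1 (1.63).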

How the data were processed

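RNA of 21 libraries of A375 and lines derived from it was sequenced by the authors. The submitters' processing notes name GRCh38 as the build and, as tools, Picard, DESeq2, RSEM and STAR 2.6.1a. The deposited signal values are estimated gene counts that the authors had divided by size factors, since the median ratio to each gene's geometric mean came to 1.0126 in all 21 libraries. They carry a further factor per gene and library, so whole reads could not be recovered and no count model was used.

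Samples were grouped by GEO's condition and title labels, which give no batch. Replicates are separate samples by their labels, and the labels do not say whether they are separate cultures, so p-values measure the spread between these samples. No 2 libraries were identical (Pearson r across genes was 0.959 to 0.988 within groups). Members and gene lists were chosen with earlier results of these data known.

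Gene identifiers were matched to GENCODE 44 symbols in Python 3.11.15. A gene entered the test if it reached 10 in 3 or more libraries (19290 of the 32889 genes with any value), and log2(value + 1) was fitted by limma 3.58.1 in R 4.3.3 with trend, 1 mean per group over all 21 libraries, no covariate, 14 residual and 4.70 prior degrees of freedom. Calls needed a 2-fold difference and, after Benjamini-Hochberg adjustment over all genes, a p of 0.05 or lower, the study's thresholds. SE is the moderated standard error. The fit was tested on simulated data. Values in every library are given for members called in at least 2 of the 6 comparisons with the parental line or in an inhibitor comparison, at most 3 per role by range of group means, and MX1 and CMPK2 were added after their values were seen. Alternatives were no filter, a pseudocount of 10, equal totals, quantile normalization, the compared groups alone, a replicate block, each library left out, and CRT34 Combo replicate 3 and CRT35 DMSO replicate 1 left out together. Some genes of the lists are not reported here by name. Motifs were searched as fixed letters on both strands.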

Additional observations from a re-analysis of the deposited data

Results flagged for a closer look

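The clones differed, by the direct test of gSOX10 #4 against gSOX10 #2, for 5 members, 2 higher and 3 lower in gSOX10 #4, against 2.64% and 7.06% of all genes. The count of lower members lay near that share, and the count of higher members rests on 2 genes. Each gSOX10 group is 1 clone, so the difference cannot be told apart from cloning and selection. The log2 differences were -1.27 for OAS1, 1.73 for IFI44L, 1.41 for BST2, -1.30 for CMPK2 and -1.41 for ISG20.

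CRT35 and CRT34 in DMSO differed, by their direct test, for 6 members, 5 higher and 1 lower in CRT35, against 3.69% and 4.42% of all genes. The log2 differences were 1.27 for IFIT1, 1.07 for IFIT2, 1.15 for IFI44L, 2.14 for MX1, -1.14 for CMPK2 and 1.44 for SAMD9L. Groups of 3 libraries are too small for a test of single outlying libraries, so none was run.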

How the results depend on the processing

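Of 146 calls of members over 12 comparisons, 106 were made under every alternative and 121 without each library in turn, and no call changed direction. Counts of called members moved by over 1.5 times in these cases. Quantile normalization left 12 of 19 in gSOX10 #2, where genes called higher over all genes went from 3064 to 2288. The fit on the compared groups alone left 0 of 4 for CRT34 Combo against CRT34 DMSO, where calls over all genes went from 547 higher and 436 lower to 7 and 29. The replicate block left 0 of 4 there, with 0 of all genes, and 2 of 6 for CRT35 DMSO against CRT34 DMSO, which had 3 to 6 called when single libraries were left out, 3 without CRT35 DMSO replicate 3. Same-numbered libraries deviated together in 1 of 15 pairs of groups, CRT34 Combo and CRT35 Combo (r = 0.218, 0.253 and 0.207), so the numbers are not taken to pair the samples compared above; the block changed no other count by that much, and with it the test of the inhibitor effects called 0 members as before. No block was fitted for gSOX10 #2, whose labels give no matching number. Without CRT34 Combo replicate 3 and CRT35 DMSO replicate 1 no count of members moved by over 1.5 times (not run where the compared groups hold neither). The median over all genes moved in gSOX10 #2 from 0.029 to 0.146 under equal totals and in CRT35 Combo from 0.052 to -0.129 under quantile normalization, and members' differences are to be read beside these shifts. In the difference of the inhibitor effects over all genes, 0 higher and 2 lower genes became 1 and 3 with no filter or equal totals, 5 and 7 with a pseudocount of 10, 0 and 4 under quantile normalization, 134 and 89 without CRT34 Combo replicate 3, and 199 and 89 also without CRT35 DMSO replicate 1. The values carry no read counts, so no counting error is given, and the lowest genes (IFI27, RSAD2, SOCS1) depend most on the pseudocount. With 10 in place of 1, RSAD2 stood at 0.91 in gSOX10 #2, 0.57 in gSOX10 #4, 0.97 in CRT34 DMSO and 0.95 in CRT35 DMSO. It was called in none of these. IFI27 lost its call in CRT34 DMSO (1.5), and ISG15 lost its limma call in CRT35 DMSO (1.11, adjusted p = 0.0523).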

Other observations

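A further list of 20 interferon-induced genes outside the 39 was followed as well, and all 20 entered the test. In the clones 3 were called higher and 0 lower (gSOX10 #2) and 1 higher and 1 lower (gSOX10 #4), and the CRT groups had 6 to 10 higher and 0 lower. Over all genes 15.9% were higher in gSOX10 #2, 11.8% in gSOX10 #4 and 15.7% to 20.1% in the CRT groups, so neither clone's count of higher genes exceeded the share over all genes. TRIM22, an antiviral ubiquitin ligase, was called higher in all 6 derived groups. TRIM22 read 103, 108 and 74.1 in the parental libraries, 673, 1366 and 1212 in gSOX10 #2, 422, 721 and 892 in gSOX10 #4, 984, 2368 and 2406 in CRT34 DMSO, 4165, 3345 and 3295 in CRT34 Combo, 2815, 2662 and 2877 in CRT35 DMSO and 6072, 4157 and 3144 in CRT35 Combo. No parental library reached the range of any derived group, and the log2 difference ran from 2.77 ± 0.34 in gSOX10 #4 to 5.50 ± 0.34 in CRT35 Combo.

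The guanylate-binding proteins GBP1, GBP2 and GBP3 attack pathogens inside the cell and respond strongly to interferon gamma. GBP1 read 385, 584 and 516 in the parental libraries, 472, 628 and 480.1 in gSOX10 #2, 520.4, 726 and 839 in gSOX10 #4, 2754, 2883 and 3614 in CRT34 DMSO, 4088, 4246 and 8234 in CRT34 Combo, 1718, 1127 and 1522 in CRT35 DMSO and 3260.2, 2574 and 4560.1 in CRT35 Combo. GBP1 was called higher in the 4 CRT groups (1.55 to 3.42) and in neither clone (0.10 ± 0.27 and 0.48 ± 0.27). GBP2 was called lower in gSOX10 #4 (-2.61 ± 0.43) and higher in CRT34 DMSO (1.99 ± 0.43), CRT34 Combo (2.67 ± 0.43) and CRT35 Combo (1.50 ± 0.43). GBP3 was called in the 4 CRT groups (1.07 to 2.12), and in CRT34 DMSO that call was lost without parental replicate 1 (0.98) or CRT34 DMSO replicate 3 (0.92). With the inhibitors GBP1 was higher than in DMSO in CRT35 (1.23 ± 0.27, adjusted p = 0.0241), a call lost in the fit on those 6 libraries alone (adjusted p = 0.0845) and without CRT35 Combo replicate 1 (1.26), CRT35 Combo replicate 3 (1.01), CRT35 DMSO replicate 2 (1.06) or CRT35 DMSO replicate 3 (1.28). EPSTI1 was called higher in gSOX10 #2 (3.36 ± 0.59) and the 4 CRT groups (2.76 to 4.48) at mean values of 20.2 to 67.5, from 3.08 in the parental line. EPSTI1 was under 10 in every parental and gSOX10 #4 library and passed the filter only through groups in which it was high, so its calls are a description. RTP4 was called higher in the 4 CRT groups (1.39 to 2.50).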
